A study of Mus musculus with 8 samples.

Results

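The granins, the enzymes that process prohormones and a pair of gut hormones were followed in Paneth cells, which sit at the crypt base of the small intestine and secrete antimicrobial proteins. The 10 genes were Chga, Chgb, Scg2, Scg3, Scg5, Pcsk1, Pcsk1n, Cpe, Sct and Gcg, found by matching symbols to the Ensembl gene IDs of the count table, which lists 55414 IDs. They were chosen because Chga and Chgb were higher after tumor necrosis factor (TNF) in these libraries. All TNF against PBS values of the 10 genes are therefore a description, given without p-values. A filter on low counts left 13368 genes for the comparison, and 6 of the 10 passed it. Scg2, Scg3, Scg5 and Pcsk1n did not.

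RNA-seq counts per gene were analysed for 8 libraries of sorted Paneth cells from wild-type (WT) mice of the strain C57BL/6J. In the PBS group (n = 4) mice received an injection of PBS, a buffered saline, and in the TNF group (n = 4) an injection of TNF, an inflammatory cytokine. The small intestine was taken 3 hours after injection in both groups. No dose and no age of the mice was found in the labels or methods. In such bulk libraries, fewer cells of a type and less RNA per cell cannot be told apart.

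Granins are acidic proteins that fill the dense core granules of endocrine and neuroendocrine cells, where they bind calcium and help to pack hormones. Prohormones enter the same granules, are cut by the convertase PC1/3 (the product of Pcsk1) and are then trimmed by carboxypeptidase E (the product of Cpe). In the intestine these proteins are best known from enteroendocrine cells, the scattered epithelial cells that release secretin, glucagon-like peptides and other hormones. Paneth cells carry large secretory granules of their own, filled with antimicrobial proteins.

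The libraries held between 23824717 and 32576077 counts. TNF replicate 4 stood apart from the other 7 libraries on the second principal component (score 63.9 against -29.1 to 4.22; 15.8% of the variance). Its TMM scaling factor was 0.448, against 0.995 to 1.36 in the others, so that its normalized CPM (CPM, counts per 1000000, on the scaled library size) lie above its plain CPM (on all counts). Levels are normalized CPM unless plain CPM is named, and results that rest on this library are given with and without it. The Paneth markers Lyz1, Itln1, Mmp7, Ang4, Pla2g2a and Defa24 were abundant in each library, with summed levels of 271000 to 396000 in PBS, 338000 to 393000 in TNF replicates 1 to 3 and 1030000 in TNF replicate 4, where the scaled library size is smaller than the count total.

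The proximal promoters of the granins and of Pcsk1 are shown because a cyclic AMP response element (CRE), the binding site of CREB and ATF family factors, is a known feature of several of these genes. A RefSeq promoter window (250 bases before to 50 bases from the start, build GRCm38.p6) was found for 9 of the 10 genes, all but Cpe. The 120 bases before the start follow for Chga (chr12:102554821-102554940, plus strand), Chgb (chr2:132781522-132781641, plus strand), Scg2 (chr1:79440027-79440146, minus strand) and Pcsk1 (chr13:75089737-75089856, plus strand), each written 5′ to 3′ along the gene. Capitals mark the CRE letters TGACGTCA or, in Chga, the 1-base variant TGACGTAA.
Chga: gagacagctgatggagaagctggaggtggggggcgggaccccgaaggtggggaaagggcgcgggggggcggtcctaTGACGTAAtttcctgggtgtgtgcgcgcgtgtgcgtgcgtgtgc
Chgb: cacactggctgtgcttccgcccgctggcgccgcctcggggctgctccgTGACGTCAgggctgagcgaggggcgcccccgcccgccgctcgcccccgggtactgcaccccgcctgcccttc
Scg2: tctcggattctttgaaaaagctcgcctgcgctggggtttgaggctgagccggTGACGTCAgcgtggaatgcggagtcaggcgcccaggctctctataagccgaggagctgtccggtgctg
Pcsk1: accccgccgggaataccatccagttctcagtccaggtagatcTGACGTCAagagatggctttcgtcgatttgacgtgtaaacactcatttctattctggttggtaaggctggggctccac
The capitals sit 65 to 72 bases before the start in Chgb, 61 to 68 in Scg2, 71 to 78 in Pcsk1 and 37 to 44 in Chga.

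The full CRE letters TGACGTCA, searched on both strands, were thus in 3 of the 9 windows, and in 1.79% of the 32851 RefSeq promoter windows of the same length. The variant TGACGTAA was in the Chga window and in 0.499% of all windows. Both hold the shorter core TGACGT, which was in 5 of the 9 windows (the 4 shown and Scg5) and in 7.51% of all. Pcsk1 held a second core, 45 to 50 bases before the start. Scg5 also held more than 1 core, at -175 to -170 and at +40 to +45 (the start base is +1). The letters were chosen after these promoters had been read, and the matches are a description. The NF-kB consensus was found in 1 window, that of Chgb at 44 to 53 bases before the start, and in 8.46% of all. The AP-1 letters TGANTCA were found in Pcsk1n alone of the 9 (7.81% of all), and an interferon-stimulated response element in Pcsk1 alone (3.44% of all). The E-box CAGATG, a form bound by NeuroD factors, was in the windows of Gcg and Sct (17.2% of all). The letters TATAAA, searched on the given strand only, were in those of Gcg, Sct and Chga (8.32% of all). They lay at -24 to -19 in Gcg and at -28 to -23 in Sct, but after the start, at +6 to +11, in Chga. None of the searched letters was found in the Scg3 window.

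**Figure D1:**
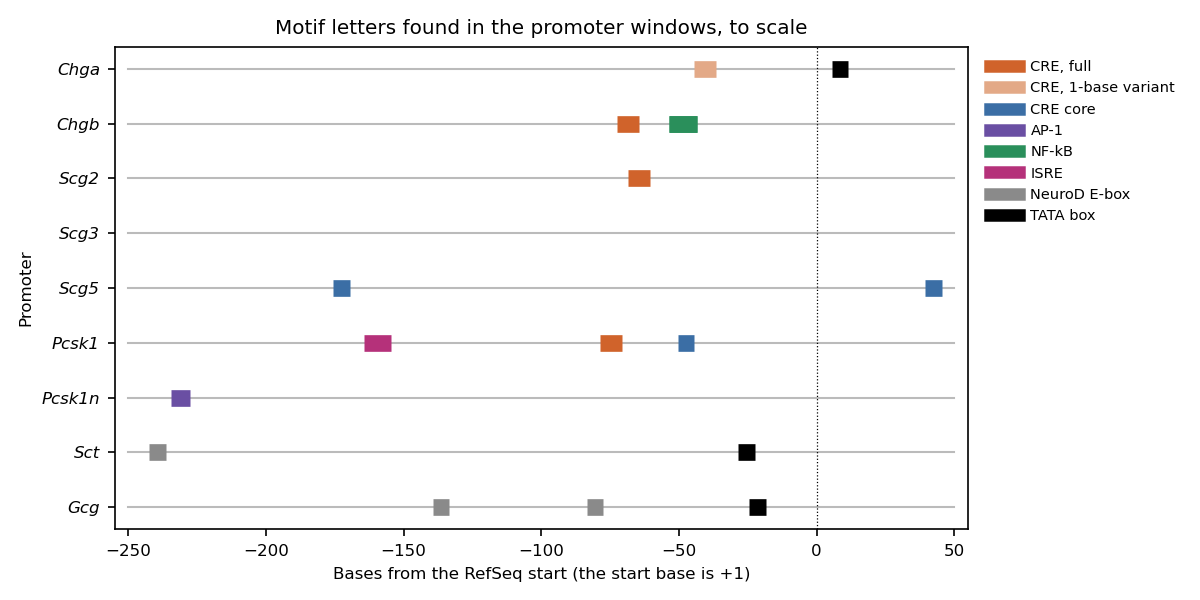
Position of the searched letters in the promoter windows of 9 genes, with bases from the RefSeq start on the x axis (the start base is +1), 1 line per gene and 1 colour per motif; a core inside a full or variant CRE is not drawn again. The full CRE letters of Chgb, Scg2 and Pcsk1 lie between 61 and 78 bases before the start and the variant of Chga at 37 to 44.

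In PBS, the 10 genes differed widely in abundance. Levels were compared between genes as normalized CPM per kb of the canonical transcript (mean ± SD, n = 4) and as a percentile among the 21395 genes with a count in PBS. Sct, which encodes the hormone secretin, was the most abundant at 35.9 ± 6.37 per kb (percentile 97.2), and its lowest PBS library lay above every PBS library of the other members. Pcsk1 followed at 3.28 ± 0.265 per kb (percentile 71.7). Gcg, the gene of proglucagon, was at 2.34 ± 1.02 per kb, Chgb at 1.79 ± 0.473 per kb and Chga at 1.14 ± 0.361 per kb. The PBS values of neighbours in the order from Pcsk1 to Chga overlapped, while those of Pcsk1 lay wholly above those of Chgb and Chga. Cpe, at 0.322 ± 0.0881 per kb (percentile 41.5), lay below Chga in each PBS library and above Scg5.

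The remaining granin-family genes were near the limit of detection in PBS. Scg5, whose product 7B2 is a chaperone of the convertase PC2, was at 0.0867 ± 0.0684 per kb, and Scg2 and Scg3 at 0.0341 ± 0.0288 and 0.0261 ± 0.0179 per kb. Pcsk1n, the gene of the PC1/3 inhibitor proSAAS, was at 0.00303 ± 0.00606 per kb, with 1 count in PBS replicate 1 and none in PBS replicates 2 to 4. A count of 0 in those libraries allows a level of up to 0.117, 0.126 and 0.0921 plain CPM. The values of these 4 neighbours overlapped. With all annotated exons in place of the canonical transcript, Chga was at 0.341, Scg5 at 0.0099 and Scg3 at 0.0095 per kb.

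**Figure D2:**
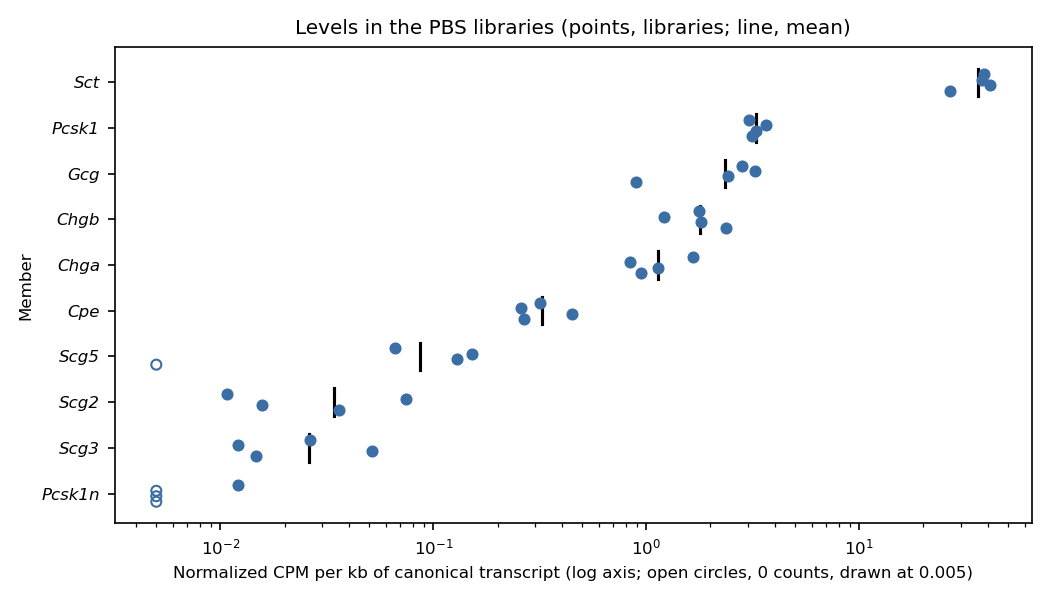
Level of each gene in the 4 PBS libraries as normalized CPM per kb of canonical transcript on a log x axis, with 1 point per library, open circles for 0 counts (drawn at 0.005) and a line at the mean. Sct stands above the rest at 35.9 per kb and Pcsk1n lowest at 0.00303 per kb.

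Among the granins, Chga and Chgb were the genes whose TNF and PBS libraries did not overlap. Chga, which encodes chromogranin A, the precursor of peptides such as vasostatin, was at 3.22, 1.64, 2.21 and 1.83 normalized CPM in PBS replicates 1 to 4 and at 7.35, 8.97, 6.95 and 11.7 in TNF replicates 1 to 4. Every TNF library was thus above every PBS library, with TNF replicate 4 highest. The means were 2.22 ± 0.704 and 8.74 ± 2.15 (SD, n = 4), which gave a log2 fold change of 1.95 (SE 0.24) or 3.87-fold. Without TNF replicate 4 the TNF mean was 7.76. In plain CPM, Chga was at 4.04, 1.72, 2.35 and 2.49 in PBS and at 8.12, 8.92, 7.39 and 5.23 in TNF, where TNF replicate 4 was the lowest of its group and still above PBS. The gene lies on chromosome 12 (102520484 to 102531300, plus strand, GRCm39).

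Chgb encodes chromogranin B, the companion of chromogranin A in the granule matrix. It was at 6.41, 4.43, 6.58 and 8.65 normalized CPM in PBS and at 22.9, 23.4, 19.0 and 36.3 in TNF. The groups did not overlap, and TNF replicate 4 was again highest. Its means were 6.52 ± 1.72 and 25.4 ± 7.56, a log2 fold change of 1.95 (SE 0.24) or 3.86-fold, close to that of Chga, and the TNF mean without replicate 4 was 21.8. Plain CPM ran from 4.65 to 11.7 in PBS and from 16.3 to 25.3 in TNF. Chgb is on chromosome 2 (132622464 to 132637904, plus strand), where its exons overlap those of the antisense long noncoding gene Gm74864. The strand setting of the counting was not found in the labels or methods, so reads of the pair may not have been separated.

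The other granins gave too few counts for the comparison. Scg2, which encodes secretogranin II, had 1, 5, 1 and 4 counts in PBS and 4, 6, 3 and 10 in TNF. Scg3, which encodes secretogranin III, had 3, 1, 4 and 2 counts in PBS and 1, 2, 2 and 2 in TNF. Scg5 had 3, 5, 4 and 0 counts in PBS and 6, 4, 11 and 6 in TNF. The groups overlapped for each of the 3 genes. Fitted without the low-count filter, none of them was called, and a difference was not detectable at this depth. Exons of Scg3 overlap the opposite-strand gene Gm68716.

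The processing genes had smaller fold changes than the chromogranins, a difference that was not tested. Since the rise of Chga and Chgb led to the choice of the genes, nothing is read from it. Pcsk1 encodes PC1/3, which makes the first cuts in proglucagon and other prohormones. It was at 18.3, 22.0, 19.7 and 19.0 normalized CPM in PBS and at 30.0, 27.2, 36.6 and 19.2 in TNF. TNF replicates 1 to 3 were above every PBS library and TNF replicate 4 lay among them. The means were 19.8 ± 1.60 and 28.2 ± 7.21, a log2 fold change of 0.52 (SE 0.17) or 1.44-fold, and 0.68 without TNF replicate 4. In plain CPM, TNF replicate 4 was at 8.58, below all other libraries, which were at 21.0 to 38.9. Pcsk1 is on chromosome 13 (75237284 to 75284898, plus strand).

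Cpe, which removes the basic residues that the convertases leave, was at 0.778, 0.632, 1.10 and 0.657 in PBS and at 1.38, 1.38, 0.983 and 3.27 in TNF. The groups overlapped through PBS replicate 3 and TNF replicate 3. The means were 0.793 ± 0.217 and 1.75 ± 1.02, a log2 fold change of 1.08 (SE 0.38), and 0.69 without TNF replicate 4. Between 17 and 40 counts per library lay behind these values. Pcsk1n had 3 counts in TNF replicate 1, 1 in TNF replicate 3 and 0 in the other TNF libraries, and was not tested. Its exons overlap those of Eras on the opposite strand. Cpe lies on chromosome 8 (65045555 to 65146435, minus strand) and Pcsk1n on the X chromosome (7786043 to 7790649, plus strand).

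Of the 2 hormone genes Gcg was called and Sct was not, and the difference between them was not tested. The call of Gcg was lost in 9 of 16 other settings, among them without TNF replicate 4 and with library size alone. Sct was at 20.0, 19.5, 21.4 and 13.9 normalized CPM in PBS and at 16.5, 17.0, 17.4 and 61.6 in TNF. TNF replicates 1 to 3 lay inside the range of the PBS libraries, and only TNF replicate 4 was above it. The log2 fold change was 0.57 (SE 0.40), not called, and without TNF replicate 4 it was -0.12, with a TNF mean of 17.0 against 18.7 ± 3.32 in PBS. In plain CPM, Sct was at 18.8 to 25.0 in PBS, at 16.9 to 18.5 in TNF replicates 1 to 3 and at 27.6 in TNF replicate 4. Sct is on chromosome 7 (140858243 to 140859052, minus strand).

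Gcg, whose precursor protein yields glucagon-like peptides in the intestine, was at 3.06, 3.53, 2.64 and 0.973 in PBS and at 3.55, 6.09, 3.44 and 9.62 in TNF. The groups overlapped, since PBS replicate 2 was above TNF replicate 3. The means were 2.55 ± 1.11 and 5.68 ± 2.90, a log2 fold change of 1.13 (SE 0.42) or 2.19-fold, and 0.81 without TNF replicate 4. In plain CPM the ranges were 1.32 to 3.84 in PBS and 3.66 to 6.06 in TNF. Gcg is on chromosome 2 (62304873 to 62313997, minus strand).

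**Figure D3:**
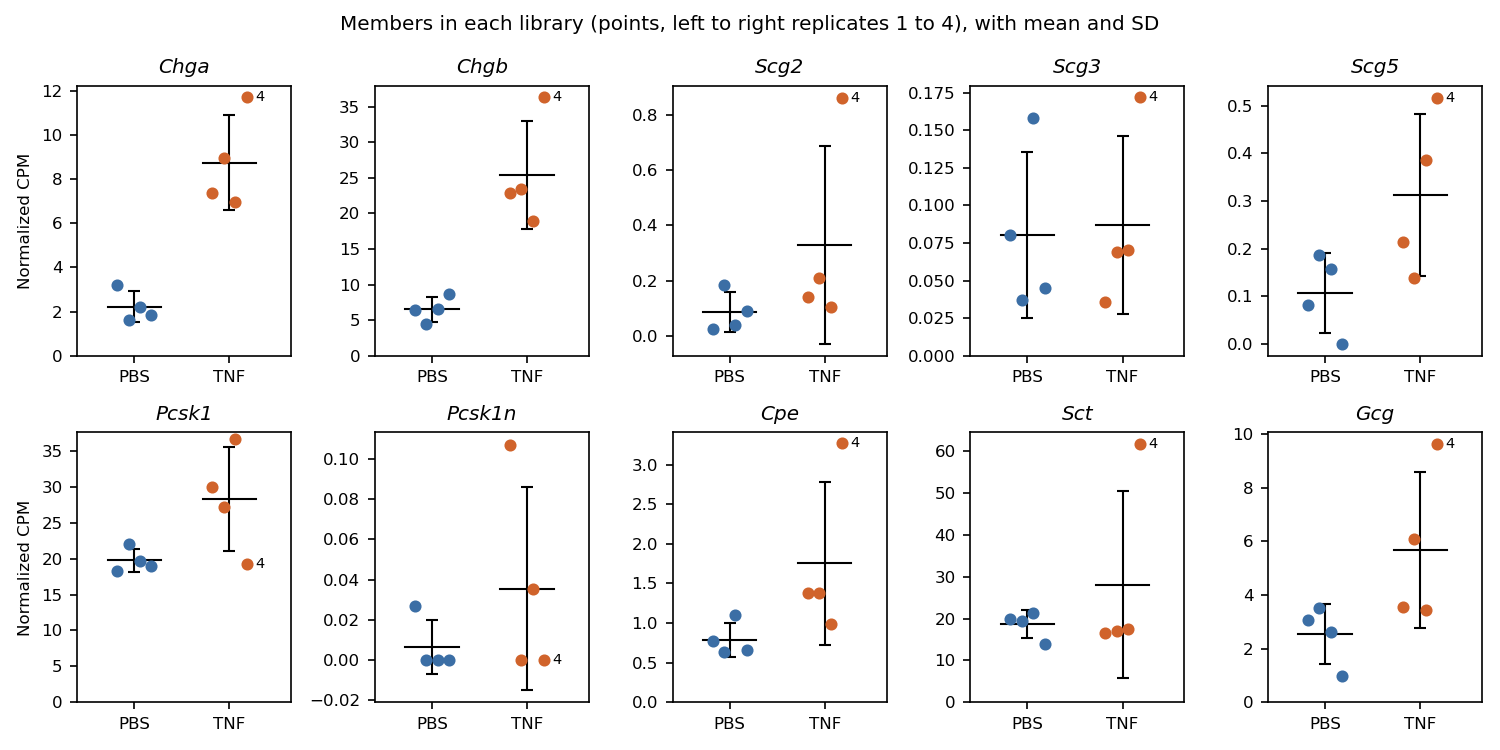
Normalized CPM (y axis, linear, 1 scale per gene) of the 10 genes in PBS and TNF, with 1 point per library, the mean as a horizontal line and bars for the SD (n = 4). For Chga and Chgb all TNF libraries lie above all PBS libraries, and for Sct only TNF replicate 4, labelled 4, does.

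Of the 6 genes tested, 5 were called higher (Chga, Chgb, Pcsk1, Cpe and Gcg), 0 lower and 1, Sct, was not called. In the same fit 43.0% of all 13368 genes were called, with 23.3% of all genes higher and 19.6% lower in TNF. Because the genes were chosen on this contrast, nothing is read from their count against that share. Groups did not overlap, with TNF higher, for 2 of the 6, beside 22.4% of all genes tested (42.1% in either direction). The median log2 fold change of the 6 genes was 1.11 (0.75 without TNF replicate 4 and 0.58 with library size alone), against 0.03 over all genes tested. Chga and Chgb, whose rise led to the choice of the genes, are among the 6. Nothing is read from this median either. Over the 16 other settings tried, the log2 fold change ran from 1.48 to 2.16 for Chga and from 1.43 to 2.07 for Chgb, a range that describes the same libraries and is no further support. Pcsk1 and Cpe, like Gcg, each lost the call in 9 of the 16. With library size alone in place of TMM, which moved the median of all genes by -0.40, the calls left were Chga and Chgb, and all genes split into 757 higher and 2425 lower in place of 3121 and 2625. Without TNF replicate 4 they were Chga, Chgb and Pcsk1. Without PBS replicate 1, without PBS replicate 4 or without TNF replicate 2, 2 members were called in each case, and without PBS replicate 3 there were 3.

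**Figure D4:**
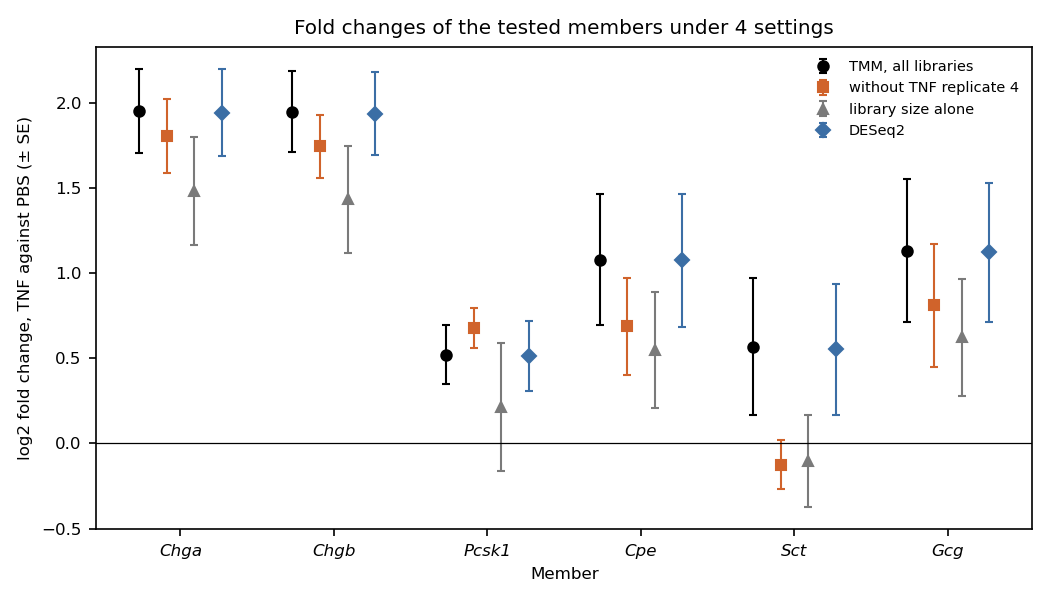
log2 fold change of TNF against PBS (y axis) of the 6 tested genes under 4 settings, with bars for the SE. Chga and Chgb lie at 1.43 or above in all 4, whereas Sct is at 0.57 with all libraries and TMM and at -0.12 without TNF replicate 4.

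The sum of the 10 genes was 65.2, 54.7, 57.5 and 61.2 plain CPM in PBS and 90.8, 84.0, 90.3 and 64.1 in TNF. TNF replicate 4 thus lay near PBS on this scale. In normalized CPM the sum was 45.1 to 54.1 in PBS, 82.1 to 85.0 in TNF replicates 1 to 3 and 143 in TNF replicate 4. After each library's group mean was subtracted from log2 CPM, Chga and Chgb correlated with r = 0.544 over the 8 libraries, Chgb and Pcsk1 with r = -0.829, and Sct and Cpe with r = 0.888. These values share the libraries and their scaling, in which TNF replicate 4 stands apart, and are a description. The genes of at least 5 normalized CPM that were most like Chga by the same measure were Mptx1 (r = 0.927), Ms4a8a (0.917) and S100a6 (0.912). Most like Chgb were Mfhas1 (0.965), Cgn (0.963) and Creb1 (0.961).

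The wider pathway was described with 5 lists of genes that were no members, fitted in the same edgeR quasi-likelihood model with Benjamini-Hochberg adjustment over all genes. Of 7 other proprotein convertases and relatives, 5 were tested, 0 rose and 1 fell, with a median log2 fold change of -0.50 (-0.88 with library size alone, where the median of all genes was -0.38). Mbtps1, the site-1 protease that cleaves membrane-bound transcription factors, fell from 55.4 ± 0.913 to 39.1 ± 2.18 (log2 fold change -0.50, SE 0.10, edgeR adjusted p = 0.0016). Furin, the ubiquitous convertase of the secretory route, was at 35.9 ± 1.04 in PBS and 40.7 ± 7.78 in TNF, and Pcsk7 and Pcsk5 were not called either. Pcsk2, which encodes PC2, the partner of PC1/3 in endocrine granules, had 1 count over all libraries. With library size alone no gene of the list was called, and without TNF replicate 4 there were 3, with Furin and Pcsk7 added as higher. Without PBS replicate 3 there were 2, with Pcsk4 added as lower.

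Of 9 trimming and amidating enzymes, 7 were tested, 1 rose and 0 fell (median log2 fold change -0.12, -0.05 without TNF replicate 4 and -0.47 with library size alone). Ctsl, which encodes cathepsin L, rose from 21.8 ± 2.64 to 28.4 ± 3.48 (log2 fold change 0.38, SE 0.13, edgeR adjusted p = 0.0358), a call lost under library size alone, with no low-count filter, at an adjusted p of 0.01 and in the absence of PBS replicate 1, 3 or 4 or TNF replicate 2 or 3. The carboxypeptidase Cpd, which acts in the trans-Golgi network and shares the activity of Cpe, was at 236 ± 13.2 in PBS and 184 ± 52.2 in TNF, and was not called. Of 10 further proteins of dense core granules, 5 were tested, 0 rose and 1 fell (median log2 fold change -0.20, -0.08 without TNF replicate 4 and -0.54 with library size alone). Syt13, an atypical synaptotagmin, fell from 5.04 ± 1.30 to 2.17 ± 0.893 (log2 fold change -1.16, SE 0.29, edgeR adjusted p = 0.00823). Syt7, a calcium sensor of exocytosis, missed the threshold (edgeR adjusted p = 0.0631, log2 fold change 0.53, SE 0.21) and was called without TNF replicate 4. Ptprn2, a granule membrane protein, was at 127 ± 7.42 and 110 ± 19.9 and was not called.

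Of 14 other hormone and serotonin genes, 6 were tested, 2 rose and 1 fell. Their median log2 fold change was 1.68. It was 0.96 with library size alone and 0.48 without TNF replicate 4, in which Gip was at 17.2 normalized CPM against 0 to 0.281 in the other TNF libraries. Tac1, the precursor of substance P, was at 0.215, 0.0744, 0.355 and 0.226 normalized CPM in PBS and at 3.20, 6.34, 4.07 and 8.08 in TNF. All TNF libraries were above all PBS libraries, 24.1-fold on the fitted scale (log2 fold change 4.59, SE 0.41, edgeR adjusted p = 1.08e-05). Tph1, the first enzyme of serotonin synthesis, rose from 0.395 ± 0.171 to 2.38 ± 0.440 (5.90-fold, edgeR adjusted p = 9.78e-05). Ddc, which catalyses the next step, fell from 9.23 ± 1.22 to 4.96 ± 0.939 (log2 fold change -0.90, SE 0.17, edgeR adjusted p = 0.00164). Of 14 enteroendocrine transcription factors, 3 were tested, 0 rose and 1 fell. The median of the 3, which is the value of Neurog3, was 0.43 on the log2 scale and turned to -0.12 without TNF replicate 4 and to -0.13 with library size alone. Nkx2-2 fell from 4.80 ± 0.548 to 0.953 ± 0.475 (log2 fold change -2.44, SE 0.28, edgeR adjusted p = 6.1e-05), while Insm1 and Neurog3 were not called. Neurod1 passed the low-count filter in 7 of the 8 fits that left out 1 library, and was called, as higher, in 4 of them (without PBS replicate 3 or TNF replicate 1, 3 or 4).

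**Figure D5:**
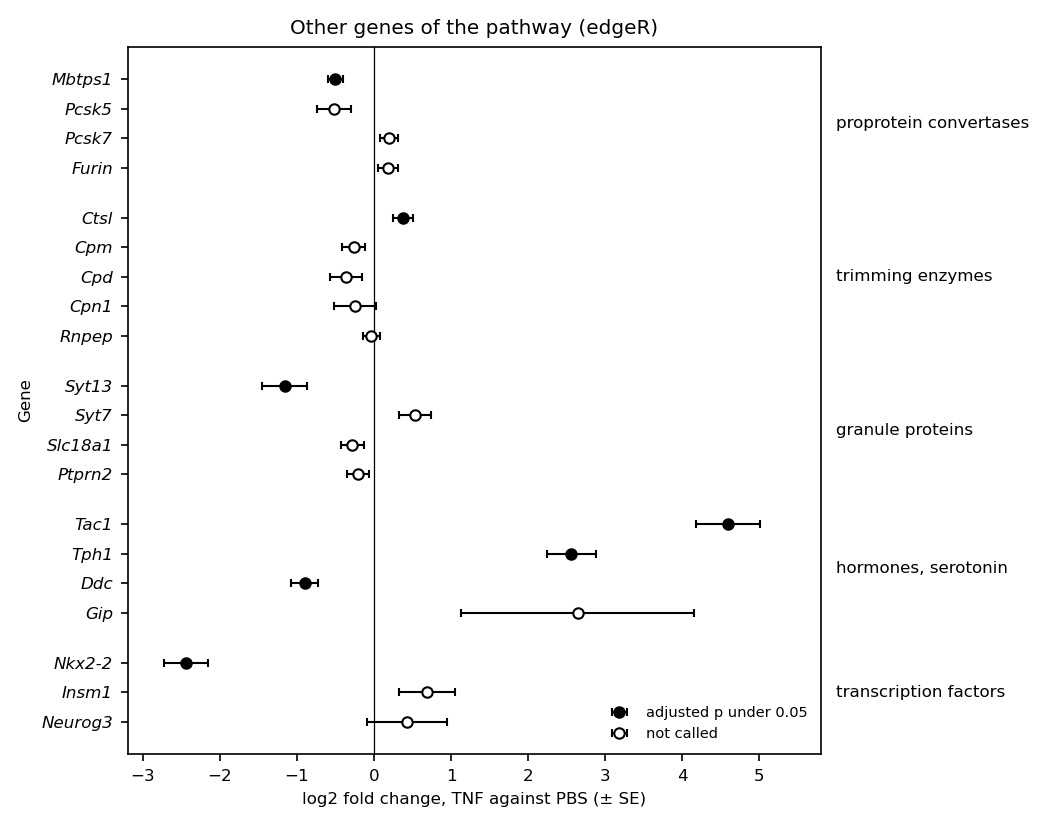
log2 fold change of TNF against PBS (x axis) with bars for the SE, for the named genes of the 5 pathway lists, 1 gene per line; filled circles passed an adjusted p of 0.05 in edgeR. Of the filled circles Tac1 (4.59) and Tph1 (2.56) lie farthest to the right and Nkx2-2 (-2.44) farthest to the left.

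Since granins are best known from enteroendocrine cells, markers of that cell type were set beside these results. Of the 8 markers Neurod1, Insm1, Rfx6, Pax6, Isl1, Nkx2-2, Tph1 and Fev, 3 were tested, Tph1 rose, Nkx2-2 fell and Insm1 was not called, and none was at 0 in all libraries. Their summed level was 5.34 to 7.18 normalized CPM in PBS, 3.70 to 5.65 in TNF replicates 1 to 3 and 10.1 in TNF replicate 4. Nkx2-2 made up most of the PBS sum. Without it, the other 7 markers summed to 1.29, 0.967, 1.97 and 1.83 in PBS and to 4.72, 3.12, 4.04 and 8.42 in TNF. Every TNF sum was thus above every PBS sum, but the single markers were mixed. Tph1, Neurod1 and Fev did not overlap between groups, with TNF higher, whereas Insm1, Rfx6, Pax6 and Isl1 overlapped. Without Nkx2-2 and Tph1, the 6 left, of which Insm1 alone passed the low-count filter, summed to 0.781 to 1.38 in PBS and to 2.45, 1.14, 1.76 and 5.41 in TNF, and the groups overlapped. Neurod1 had 3, 4, 7 and 8 counts in PBS and 13, 12, 10 and 29 in TNF. It did not pass the low-count filter, and fitted without the filter it was called higher (edgeR adjusted p = 0.0062). Setting Nkx2-2 aside was chosen after the values had been seen. The study reports few contaminating cells in its sorted Paneth cells, without a value for these libraries alone. Their purity was not measured here. The part of the enteroendocrine markers in the results for the 10 genes was not tested. The glia marker S100b was at 0 in all libraries. All 6 neuron and glia markers summed to 10.5 to 13.1 in PBS and 3.95 to 13.3 in TNF. Summed goblet cell markers were 7160 to 11200 in PBS, 11200 to 12000 in TNF replicates 1 to 3 and 25500 in TNF replicate 4, tuft cell markers 11.9 to 27.3, 7.58 to 14.7 and 52.9, and immune cell markers 7.31 to 13.0, 10.8 to 14.0 and 68.7. Enterocyte markers were 257 to 285 in PBS and 246 to 309 in TNF, and stem cell markers 1890 to 2780 and 1710 to 2240. These sums rest on a few abundant genes and do not show their single members. Of the 6 stem cell markers, 4 fell and 5 did not overlap between groups, with TNF lower, beside 19.6% and 19.7% of all genes tested. The 4 were Lgr5 (from 52.6 to 22.7, edgeR adjusted p = 8.41e-05), Ascl2 (from 9.18 to 2.28, or to 1.44 without TNF replicate 4, edgeR adjusted p = 0.00468), Axin2 (from 49.5 to 17.1, edgeR adjusted p = 0.00011) and Smoc2 (from 121 to 82.0, edgeR adjusted p = 0.00685). Of the 7 goblet cell markers, Muc2 rose (from 1960 to 4720, edgeR adjusted p = 0.00438), and Fcgbp (from 739 to 255, edgeR adjusted p = 0.00142) and Clca1 (edgeR adjusted p = 0.0295) fell. Clca1 rested on PBS replicate 1, at 554 against 41.1 to 44.0 in the other PBS libraries and 24.0 to 42.2 in TNF, and its log2 fold change of -2.55 was -0.60 without that library. The call of Clca1 was lost without TNF replicate 1, 2 or 3, under voom and with the replicate block, and those of Muc2, Smoc2 and Pla2g2a with library size alone. Of the 6 Paneth markers Pla2g2a rose (from 443 to 889, edgeR adjusted p = 0.000324). Of the 8 enterocyte markers Apoa4 fell, and of the 2 immune cell markers tested Cd52 rose. The part of these other cell type markers in the results was not tested either.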

How the data were processed

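The deposited table holds whole-number counts per Ensembl gene ID in 8 libraries of total RNA from sorted Paneth cells (4 PBS, 4 TNF), made by the authors with the TruSeq Stranded mRNA kit. The submitters' processing notes list FastQC 0.12, STAR 2.7.10a, DESeq2 and build mm39. The methods name an older GENCODE release for the study's alignments, without saying whether these counts used it. The counter and strand setting are not stated in the labels or methods. Symbols, positions and canonical transcript lengths came from GENCODE M39 (GRCm39), which matched 54749 of 55414 IDs. RefSeq promoters are on GRCm38.p6, and no coordinates were converted. Some genes of the lists are not reported here. Members and lists were chosen with earlier results of these data known.

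Counts were fitted with edgeR 4.0.16 (R 4.3.3): TMM scaling, filterByExpr, the quasi-likelihood F test of TNF against PBS over all 8 libraries without covariates, and Benjamini-Hochberg adjustment over 13368 genes, called under 0.05. SEs were derived from the F statistics. Normalized CPM use the TMM-scaled library size and plain CPM the count total. Named genes were all 10 members, in each pathway list the 4 tested genes of smallest p and the 2 of highest mean CPM, and the 3 genes most correlated with Chga and with Chgb. Pcsk2, Pcsk4, Neurod1, Nts, Pyy, Sst and single marker genes were named outside this rule, after their values were seen. Alternatives were RLE scaling, library size alone, other filters, DESeq2 1.42.0, limma 3.58.1 voom, a stricter threshold, a replicate block and leaving out each library. For the lengths, all annotated exons together replaced the canonical transcript, an alternative chosen after seeing the data. The script was tested on simulated data. No libraries were duplicates by a chi-square test of their counts (lowest chi-square per degree of freedom 9.38). The limit for 0 counts is 3 counts and covers counting error only. p-values measure the spread between these libraries.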

Additional observations from a re-analysis of the deposited data

Results flagged for a closer look

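Some values stood far from the other 3 libraries of their group by Dixon's test at the 95% level, which was run in both groups for 30 genes. Chance marks about 1 in 20 groups. TNF replicate 4 was the library in 6 of the 7 cases, and its scaling factor was the lowest of all. Among the granin, processing and hormone genes, Sct was at 61.6 normalized CPM in TNF replicate 4 against 16.5 to 17.4 in the other TNF libraries, and Scg2 at 0.859 against 0.105 to 0.208, the former on 717 counts and the latter on 10. Pcsk1n was at 0.0268 in PBS replicate 1, from 1 count, with 0 in the other PBS libraries. Where the others are all at 0 this test marks any count, so nothing is read from that case.

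Of the other genes of the pathway, Gip, the gene of an incretin hormone, was at 17.2 in TNF replicate 4 on 200 counts, against 0 to 0.281 in the other TNF libraries. Neurog3, the factor that starts enteroendocrine differentiation, was at 2.23 in that library against 0.527 to 0.817. Cpd was at 107 there against 203 to 222, and Pcsk7 at 19.9 against 24.2 to 25.0.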

How the results depend on the processing

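Of 96 values of the members under the alternatives, 67 kept direction and side of the threshold, as did 295 of 316 values of the named pathway genes, and 85 of 112 counts stayed within 1.5 times. With library size alone the calls were 3182 over all genes (5746 with TMM), 757 higher and 2425 lower against 3121 and 2625, 2 over the members, 0 over the convertases and 0 over the trimming enzymes. The log2 fold changes of Sct (-0.10), Pcsk7 (-0.17), Furin (-0.16), Ctsl (-0.0036) and Neurog3 (-0.13) then changed sign. At an adjusted p of 0.01 the calls were 2 members and 0 trimming enzymes. With no low-count filter they were 0 trimming enzymes, 6 hormone genes (Gip, Nts, Pyy, Tac1, Tph1 and Ddc) and 2 enteroendocrine factors (Neurod1 and Nkx2-2). Leaving out each library in turn gave 2 to 4 members, 4757 to 6923 genes in all, 1 to 3 convertases, 0 to 1 trimming enzymes, 1 to 2 granule proteins, 3 hormone genes each time and 1 to 2 enteroendocrine factors. Without TNF replicate 4, Sct (-0.12), Rnpep (0.0188), Gip (-2.36) and Neurog3 (-0.12) changed sign, and over all omissions these 4 ran from -0.12 to 0.74, -0.13 to 0.0188, -2.36 to 3.44 and -0.12 to 0.71. The sign also changed for Gip with voom (-1.18). With all annotated exons in place of the canonical transcript the PBS level per kb was 0.341 for Chga, 0.0099 for Scg5, 2.41 for Pcsk1, 0.221 for Cpe and 28.7 for Sct. Beyond the fewer libraries, genes or calls that an alternative allows, the cause was not tested. Depth limits Scg2, Scg3, Scg5 and Pcsk1n, at most 11 counts in any library.

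Replicates of equal number in PBS and TNF did not deviate together (r between -0.144 and 0.0663). No link other than this number was found in the labels, and so small a check cannot exclude a shared batch. With that number as a replicate block, 2 members (Chga and Chgb) and 5087 genes in all were called, Gip was at -0.0362, and the calls of the 5 lists did not differ by over 1.5 times.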

Other observations

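The 3 gut peptide genes given here were chosen after their values had been seen. Nts, the gene of neurotensin, had 18, 0, 0 and 0 counts in PBS and 0, 4, 0 and 127 in TNF, where TNF replicate 4 was at 10.9 normalized and 4.89 plain CPM. Pyy, the gene of peptide YY, had 10, 1, 1 and 1 counts in PBS and 2, 20, 7 and 14 in TNF. Sst, the gene of somatostatin, had 0 counts in TNF replicate 4, which allows up to 0.115 plain CPM, and 21 to 68 counts in each other library.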
